A study of Mus musculus with 6 samples.

Results

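Classical monocytes, taken by their transcripts, made up 2243 of the 26893 cells kept from 6 droplet libraries of mouse bone marrow and blood. A cell met the rule when Ly6c2, Ccr2 and Fn1 together reached 10 counts per 10000 UMIs of the cell (CP10k) and at least 1 UMI of Csf1r was present. A UMI is the tag that marks 1 captured transcript. The cell also had to hold under 10 CP10k of Mpo, under 50 CP10k of Camp, Ngp and Ltf together, and no UMI of Siglech, Flt3, Cd79a or Cd3e. The rule thus used measured values of these genes in the same cells, and their levels are given as a description only.

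All libraries came from wild-type mice, with 1 library per group and a 3′ droplet kit of version 3.1. The groups were aged and young bone marrow taken 24 h after a stroke made by middle cerebral artery occlusion, aged and young blood of untreated mice, and aged and young bone marrow of untreated mice. Sorting had enriched Gr1+ cells and c-kit+ cells from bone marrow. From blood it had taken CD11b+ cells, both those with and those without Ly6G, so these gates help to set every share of cells. Neither the mice's ages nor how many were pooled is stated in the sources used here. No sham-operated library was among those used here, so stroke and the operation cannot be told apart.

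Classical monocytes are short-lived phagocytes that arise in bone marrow from dividing progenitors under the growth factor receptor Csf1r. The chemokine receptor Ccr2 lets them leave bone marrow for blood, and inflamed tissue, the injured brain included, draws them in, where they can become macrophages or dendritic cells. Those that stay in blood can convert to Ly6C-low non-classical monocytes, which patrol the vessel wall and depend on the transcription factor Nr4a1.

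The rule took 196 of 2655 kept cells in aged and 218 of 2265 in young bone marrow after stroke. In blood it took 629 of 5342 cells from aged and 120 of 2029 from young mice, and in steady bone marrow 531 of 6389 from aged and 549 of 8213 from young mice. The share was 7.38% and 9.62% in aged and young bone marrow after stroke, 11.8% and 5.91% in aged and young blood, and 8.31% and 6.68% in aged and young steady bone marrow. No order by age ran through the 3 contexts. With 1 library per group, intervals on these shares cover counting error only and no test between groups was made. Summed over these cells, the libraries held between 1454430 UMIs (young blood) and 8064907 UMIs (aged blood).

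**Figure D1:**
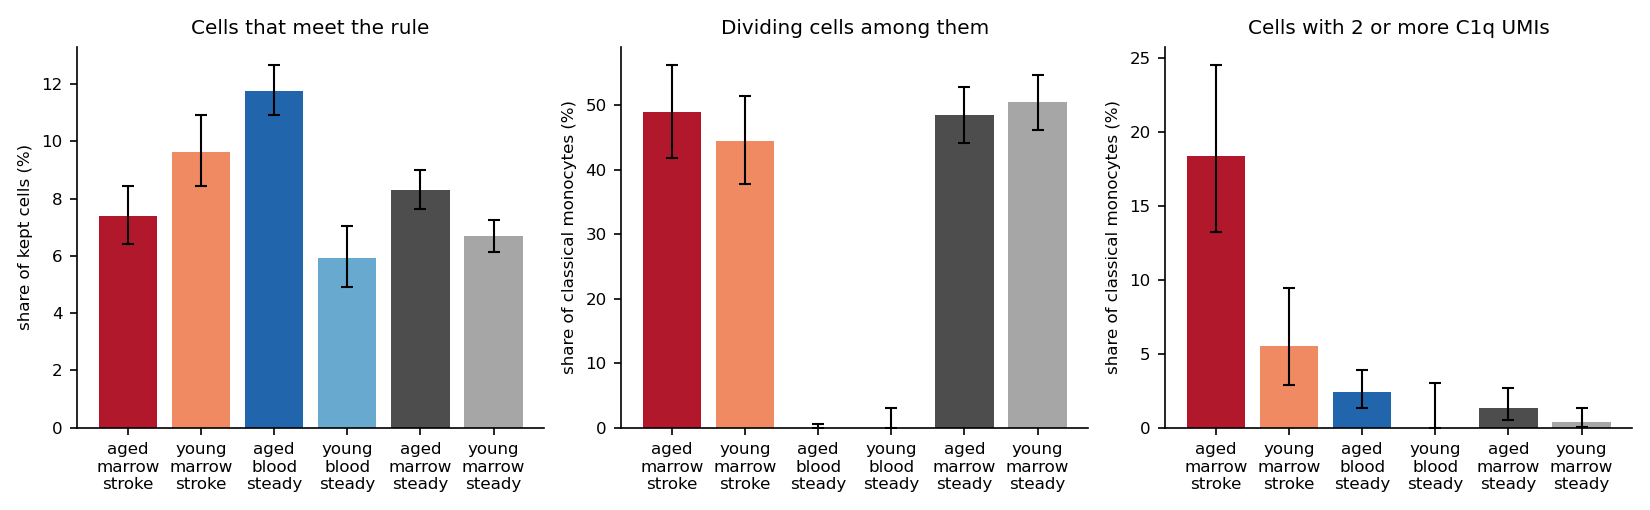
Shares of cells in each of the 6 libraries, in percent: cells that met the rule among kept cells (left), dividing cells among the classical monocytes (middle) and classical monocytes with 2 or more C1q UMIs (right). Bars stand for 1 library each and error bars for exact 95% binomial intervals; dividing cells were 44.5% to 50.5% in bone marrow and 0 of 629 and 0 of 120 in blood.

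The libraries differed in depth within this cell type. The median was 22271.5 and 21892 UMIs per cell in aged and young bone marrow after stroke, 12503 and 12677 in aged and young blood, and 7030 and 5964 in aged and young steady bone marrow. Csf1r was at 111 and 99.3 CPM (a gene's UMIs scaled by the summed UMIs of the cells) in aged and young bone marrow after stroke, against 280 and 315 CPM in steady bone marrow. A single Csf1r UMI carried 33.7% and 35.8% of the cells in aged and young bone marrow after stroke, 4.93% and 15.0% in aged and young blood, and 38.6% and 42.1% in aged and young steady bone marrow. As an alternative, cells were thinned to 2000 UMIs before the rule was applied, and cells under 2000 UMIs were left out. These were 483 and 667 kept cells in aged and young bone marrow after stroke. They were 11 and 155 in aged and young blood, and 3 and 5 in aged and young steady bone marrow. Among the thinned cells the share was 2.35% and 5.13% in aged and young bone marrow after stroke. It was 9.83% and 5.28% in aged and young blood, and 4.48% and 3.94% in aged and young steady bone marrow. These shares have other denominators than those of all kept cells. Close to the threshold, 4 and 6 cells of aged and young bone marrow after stroke lay at 10 to 12 CP10k of the 3 genes, and 6 and 5 cells that met the other criteria lay at 8 to 10 CP10k. The same counts were 24 and 9 inside against 26 and 6 outside in aged and young blood, and 12 and 10 inside against 4 and 8 outside in aged and young steady bone marrow. No barcode sequence was shared between libraries among these cells, against 104 among all cells.

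Ccr2, Fn1 and Ly6c2 had high levels in every library, which the rule itself requires of their sum. Ccr2 was at 707 and 695 CPM in aged and young bone marrow after stroke, 1557 and 1456 CPM in aged and young blood, and 1270 and 1251 CPM in aged and young steady bone marrow. Fn1, which encodes fibronectin, stood at 966 and 1478 CPM, at 1559 and 1475 CPM, and at 1803 and 1457 CPM in the same order of libraries. Ly6c2, which encodes the surface antigen Ly6C, had 1406 and 1834 CPM in aged and young bone marrow after stroke, 1156 and 1549 CPM in aged and young blood, and 2376 and 2726 CPM in aged and young steady bone marrow. In 57.7% of the 31-base words of its 3′ end, Ly6c2 matches another gene, so its level also depends on how such reads were counted. Among genes outside the rule, F13a1 (coagulation factor XIII), Ctsc, S100a4, Ms4a4c, Lyz2 (lysozyme), Ms4a6c and Lgals3 were more abundant than in the other kept cells of all 6 libraries. F13a1 had 875 and 989 CPM in aged and young bone marrow after stroke (other kept cells 94.8 and 189 CPM), 649 and 796 CPM in aged and young blood (48.6 and 42.0 CPM) and 1388 and 1280 CPM in aged and young steady bone marrow (233 and 242 CPM).

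The bone marrow cells taken by the rule were partly dividing precursors. A cell was counted as dividing at 10 CP10k or more over 10 mitotic genes, and such cells made up 49.0% of the classical monocytes in aged and 44.5% in young bone marrow after stroke (exact 95% intervals 41.8% to 56.2% and 37.8% to 51.4%). They made up 48.4% and 50.5% in aged and young steady bone marrow (44.1% to 52.7% and 46.2% to 54.7%). Among other kept cells the dividing share was 28.9% and 31.1% in aged and young bone marrow after stroke. It was 46.2% and 48.2% in aged and young steady bone marrow, near the share of the classical monocytes there. In blood there were 0 of 629 in aged and 0 of 120 in young mice, with upper limits of 0.585% and 3.03%. With 20 CP10k as the threshold the shares were 24.5% and 26.1% in aged and young bone marrow after stroke and 38.04% and 41.3% in steady bone marrow. At 2000 UMIs per cell and 10 CP10k they were 47.6% and 42.9% after stroke and 49.9% and 53.2% in steady bone marrow. Transcripts of the azurophil proteases Elane, Prtn3 and Ctsg, which granulocyte and monocyte precursors make, reached 10 CP10k in 46.4% and 32.6% of the cells in aged and young bone marrow after stroke, in none of those in blood, and in 34.5% and 35.5% in steady bone marrow. Other kept cells reached this level in 35.3% and 31.4% in aged and young bone marrow after stroke. In steady bone marrow they did so in 41.1% and 42.1%, above the classical monocytes. The label of mature classical monocytes thus goes against a large part of the bone marrow cells, which carried transcripts of cycling cells and of precursors.

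Within bone marrow, dividing cells differed from the others in a regular way, given here as a description because both sets came from the same cells. Ly6c2 was higher in dividing than in other cells of all 4 bone marrow libraries, for example 2743 against 1768 CPM in aged steady bone marrow. Ccr2 was lower in all 4, at 511 CPM in dividing against 1152 CPM in other cells of aged bone marrow after stroke and 480 against 1100 CPM in young. Fn1 and Csf1r were likewise lower in dividing cells of all 4 libraries. Of 22 classical monocyte genes outside the rule with enough counts, 19 were lower in dividing cells of all 4 libraries and 0 were higher. Over all 5730 genes at this level outside the rule, 26.4% were lower in dividing cells of all 4 libraries and 36.6% were higher. For 18 interferon-stimulated genes the counts were 15 lower and 0 higher, and for 18 lysosomal genes 13 lower and 0 higher.

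Cells carrying transcripts of other cell types were present and are named beside the results they touch. By thresholds on Retnlg, haemoglobin, NK cell, non-classical monocyte, C1q and MHC class II genes, 30.6% and 17.0% of the cells in aged and young bone marrow after stroke, 36.1% and 43.3% in aged and young blood, and 24.9% and 16.4% in aged and young steady bone marrow carried some. The 10 neutrophil markers outside the rule summed to 31870 and 40009 CPM in aged and young bone marrow after stroke, 4463 and 9005 CPM in aged and young blood, and 16876 and 12227 CPM in aged and young steady bone marrow. In the other kept cells of these libraries the sum lay between 73011 and 144029 CPM.

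The differences by age, stroke and blood were tested on counts summed over the cells of each library, with edgeR's quasi-likelihood test in a single model of age (aged minus young) and context across the 6 libraries. Its 2 residual degrees of freedom come from how far the age difference varied between contexts, so a p-value compares an effect with that variation and not with the spread between mice. In all, 11774 genes were tested, and a gene was called at a Benjamini-Hochberg adjusted p under 0.05. The age, stroke and blood differences called 9, 4670 and 4984 genes. Levels below are CPM scaled by TMM, differences are on a log2 scale with their standard error, and adjusted p-values are from this test.

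**Figure D2:**
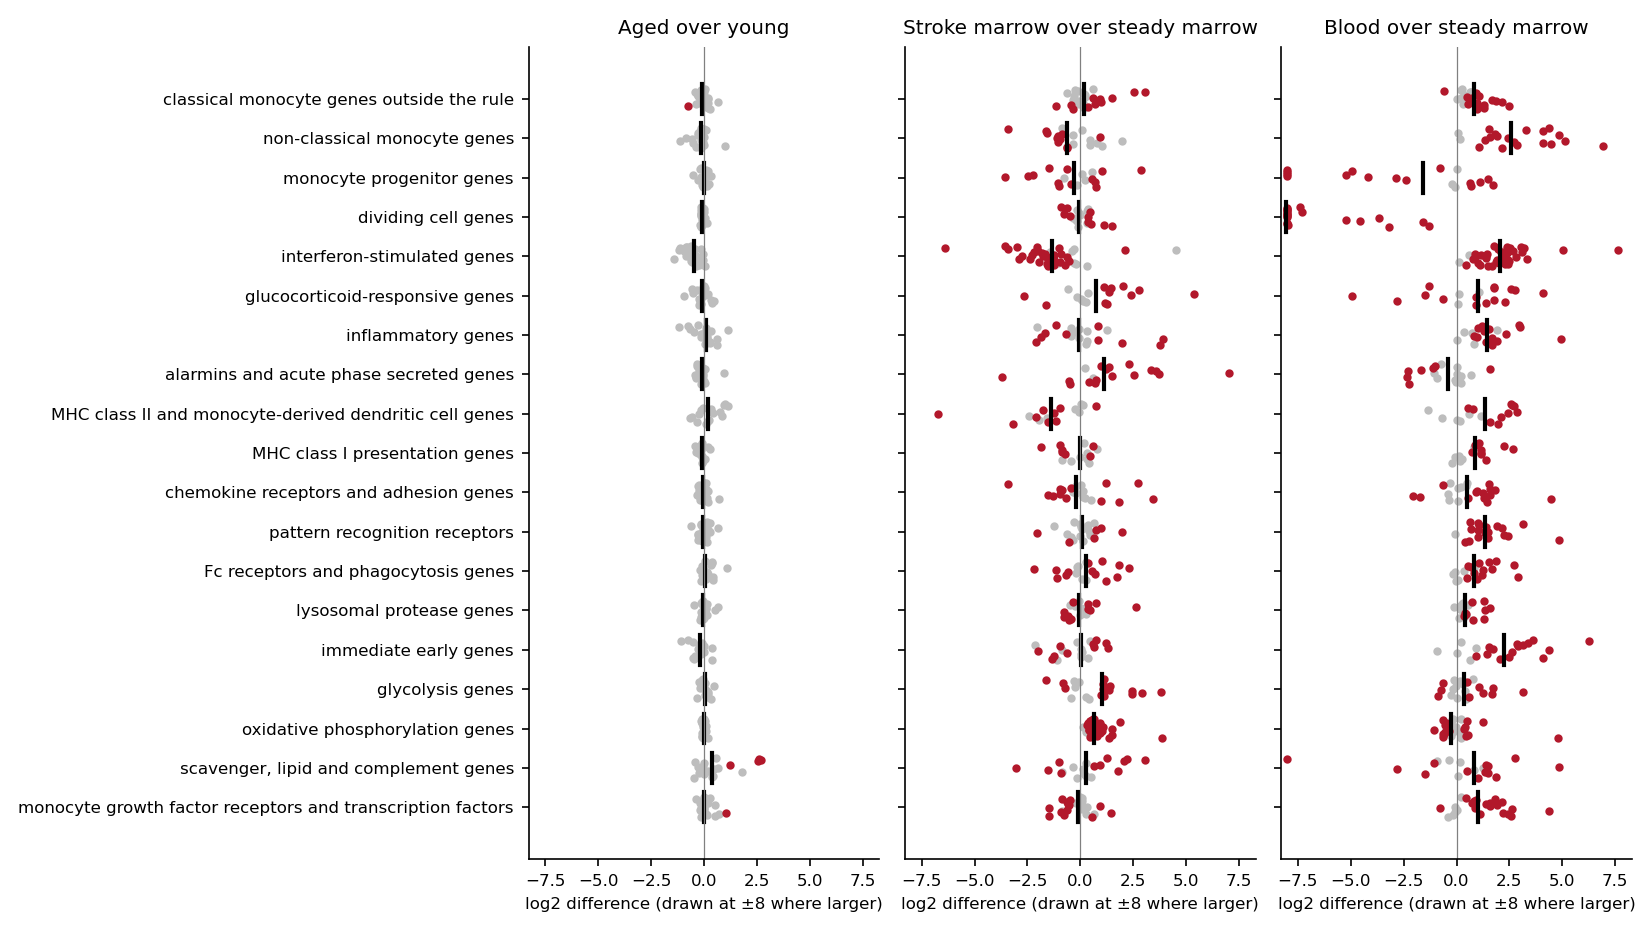
Log2 differences of the genes of 19 lists in classical monocytes, for aged over young (left), bone marrow after stroke over steady bone marrow (middle) and blood over steady bone marrow (right). Each point is a gene, red where its adjusted p was under 0.05 and grey elsewhere, and black bars mark the median of a list; interferon-stimulated genes lie mostly below 0 after stroke and above 0 in blood.

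Few genes were called in the age test, which does not show that age changes little. The 3 C1q genes were higher in aged than in young mice, and Ifi27l2a was lower. Prg2, Cd38 and Jchain, each at a mean under 20 CPM, were also higher in aged mice. In all, 8 genes were higher (0.0679%) and 1 was lower (0.00849%) in aged mice, together 0.0764% of the genes tested, and 566 genes had an unadjusted p under 0.05. The DESeq2 test called 14 genes, and 0 were called with dividing cells left out or with genes under a mean of 20 CPM left out. Leaving out 1 library raised the count to between 15 (without aged steady bone marrow) and 28 (without young bone marrow after stroke).

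C1qb, a chain of the complement recognition molecule C1q made mainly by macrophages, had 116 and 25.4 CPM in aged and young bone marrow after stroke, 13.5 and 0 CPM in aged and young blood, and 19.1 and 0.457 CPM in aged and young steady bone marrow. The aged library was higher in 3 of 3 pairs, and the difference was 2.71 ± 0.36 (adjusted p = 0.0431). C1qb was concentrated in few cells. The 10 cells richest in it held 74.5% and 96.2% of its UMIs in aged and young bone marrow after stroke, and 97.0% in aged steady bone marrow. Cells with 2 or more C1q UMIs made up 18.4% and 5.50% of classical monocytes in aged and young bone marrow after stroke (exact 95% intervals 13.2% to 24.5% and 2.88% to 9.42%), 2.38% and 0% in aged and young blood, and 1.32% and 0.364% in aged and young steady bone marrow. At 2000 UMIs per cell, C1qb was found in 11.6% and 3.8% of the cells in aged and young bone marrow after stroke. The 9 tissue macrophage markers summed to 225 and 83.5 CPM there, with 0 and 1 of them at 0, and to 127 and 77.8 CPM in aged and young steady bone marrow, with 0 and 0 at 0. The part of macrophage transcripts in the C1q levels was not tested.

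Ifi27l2a, an interferon-induced gene, was the gene lower in aged mice. It had 147 and 274 CPM in aged and young bone marrow after stroke, 2030 and 2993 CPM in aged and young blood, and 336 and 585 CPM in aged and young steady bone marrow. Aged mice were lower in 3 of 3 pairs, and the difference was -0.75 ± 0.10 (adjusted p = 0.0486). This call was lost when either steady or either stroke library of bone marrow was left out, with differences of -0.72 to -0.68 and adjusted p-values of 0.0654 to 0.141.

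By list, 4 of 19 scavenger, lipid and complement genes were higher in aged mice and 0 lower, against 0.0679% of all genes higher, with a list median of 0.37 against 0.00 for all genes. C1qa, C1qb and C1qc were among them. Without cells that carried transcripts of other cell types, a step that removes the cells with 2 or more C1q UMIs, 0 of 16 passed and the median was 0.01. No member of the interferon list passed, 0 of 40, although 39 of 40 values were below 0 and the median was -0.45. Oas3, an antiviral synthetase, had 1.31 and 4.29 CPM in aged and young bone marrow after stroke, 44.4 and 78.9 CPM in aged and young blood, and 8.32 and 14.4 CPM in aged and young steady bone marrow (-0.90 ± 0.18, adjusted p = 0.216).

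MHC class II genes present antigen to helper T cells, and 0 of the 16 genes of their list passed the age test, with 10 of 16 values above 0 and a median of 0.21. With cells thinned to 2000 UMIs 4 of 9 were higher in aged mice and 0 lower (median 0.60), where 7 of all 5860 genes were higher. Without cells that carried transcripts of other cell types the list median was -0.05. That step removes cells by their class II level, and a larger share of them from each aged library. It therefore cannot decide on the age difference of these genes. H2-Aa had 213 and 71.0 CPM in aged and young bone marrow after stroke, 835 and 640.1 CPM in aged and young blood, and 180.0 and 82.4 CPM in aged and young steady bone marrow (1.02 ± 0.19, adjusted p = 0.202). Cd74, the invariant chain of MHC class II, had 457 and 242 CPM, 2658 and 2262 CPM, and 500 and 234 CPM in the same libraries (0.74 ± 0.15, adjusted p = 0.259). With the bone marrow libraries alone, H2-Aa passed at 1.36 (adjusted p = 7.55e-07), a fit with 1 residual degree of freedom. These transcripts too sat in few cells, and 9.18% and 4.59% of the cells in aged and young bone marrow after stroke, 20.7% and 15.0% in aged and young blood, and 7.16% and 2.73% in aged and young steady bone marrow reached 10 CP10k over the class II genes. The 7 dendritic cell markers summed to 373 and 133 CPM, 1646 and 1234 CPM, and 440 and 235 CPM in the same libraries, with 3 and 1, 0 and 2, and 1 and 1 of them at 0, and their part in the class II levels was not tested.

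Bone marrow monocytes after stroke differed broadly from those of steady bone marrow, and interferon-stimulated genes and acute phase genes moved in opposite directions. The stroke libraries also differed from the steady ones in depth, in genes with shared 3′ sequence and in the cells that the quality filter removed. It kept 2655 of 3017 and 2265 of 2858 deposited cells in aged and young bone marrow after stroke. In aged and young steady bone marrow it kept all 6389 and 8213. Stroke cannot be told apart from such differences between libraries. With cells thinned to 2000 UMIs, 616 of 5860 genes were called. In all, 2331 genes were higher (19.8%) and 2339 lower (19.9%) after stroke, 39.7% of those tested. These shares are the background for the list counts after stroke below. With dividing cells left out 1508 of 9345 genes were higher and 1155 lower. With cells thinned to 2000 UMIs 394 of 5860 genes were higher and 222 lower. Genes whose 3′ end is shared with other genes need care here. The median log2 ratio of the 176 genes with 50% or more of their 3′ words shared was 1.72 in aged and 1.59 in young bone marrow after stroke over steady bone marrow, against -0.03 and 0.00 for 3265 genes with no shared word. For aged over young libraries of the same context the shift of the 176 genes was -0.21 to -0.02. The sources used here do not say how each library's multi-matching reads were treated, and genes with high sharing such as Gapdh are therefore not reported as stroke effects. Among the 10172 genes with under 10% shared words, 1517 were higher (14.9%) and 2208 lower (21.7%), together 36.6%.

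**Figure D3:**
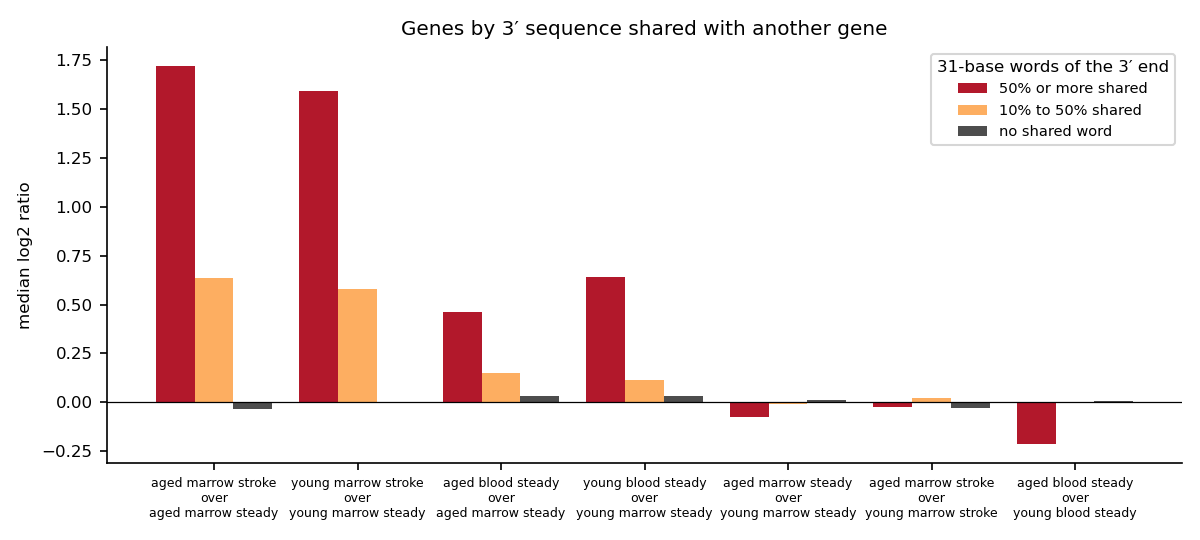
Median log2 ratio between paired libraries of classical monocytes, for genes grouped by the share of 31-base words of the 3′ end found in another gene (50% or more, 10% to 50%, none). The first 4 pairs set bone marrow after stroke or blood over steady bone marrow of the same age and the last 3 set aged over young; the shift of highly shared genes is 1.72 and 1.59 in the 2 stroke pairs.

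Saa3, an acute phase serum amyloid protein, had the largest rise among genes of at least 20 CPM that share under 50% of their 3′ words. It had 957 and 800.2 CPM in aged and young bone marrow after stroke, against 13.9 and 0.913 CPM in aged and young steady bone marrow (7.02 ± 0.51, adjusted p = 1.43e-05). A UMI of Saa3 was found in 77.0% and 78.0% of the cells after stroke, against 1.1% and 0.4% in steady bone marrow. In other kept cells of the stroke libraries its level was 47.6 and 82.1 CPM. Il1r2, the decoy receptor that traps interleukin-1, had 289 and 190 CPM after stroke, against 6.96 and 4.34 CPM in steady bone marrow (5.37 ± 0.44, adjusted p = 2.67e-05). It was found in 85.7% and 82.1% of the cells after stroke, against 5.6% and 3.3% in steady bone marrow. The shares of cells with Saa3 and Il1r2 compare deeper cells after stroke with shallower steady ones. Il1r2 is also among the neutrophil markers, whose sum was higher after stroke, and the part of neutrophil transcripts in its level was not tested.

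Igfbp6, which binds insulin-like growth factors, had 86.4 and 57.1 CPM in aged and young bone marrow after stroke, against 3.48 and 0 CPM in steady bone marrow (5.30 ± 0.44, adjusted p = 2.99e-05). Vcan, the proteoglycan versican, had 462 and 535 CPM after stroke, against 89.5 and 30.4 CPM in steady bone marrow (3.04 ± 0.46, adjusted p = 0.000858). Thbs1, which encodes thrombospondin-1, had 59.4 and 40.6 CPM after stroke, against 4.45 and 2.97 CPM in steady bone marrow (3.75 ± 0.20, adjusted p = 2.86e-06). Both stroke libraries lay above both steady libraries for each of these matrix and growth factor genes.

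**Figure D4:**
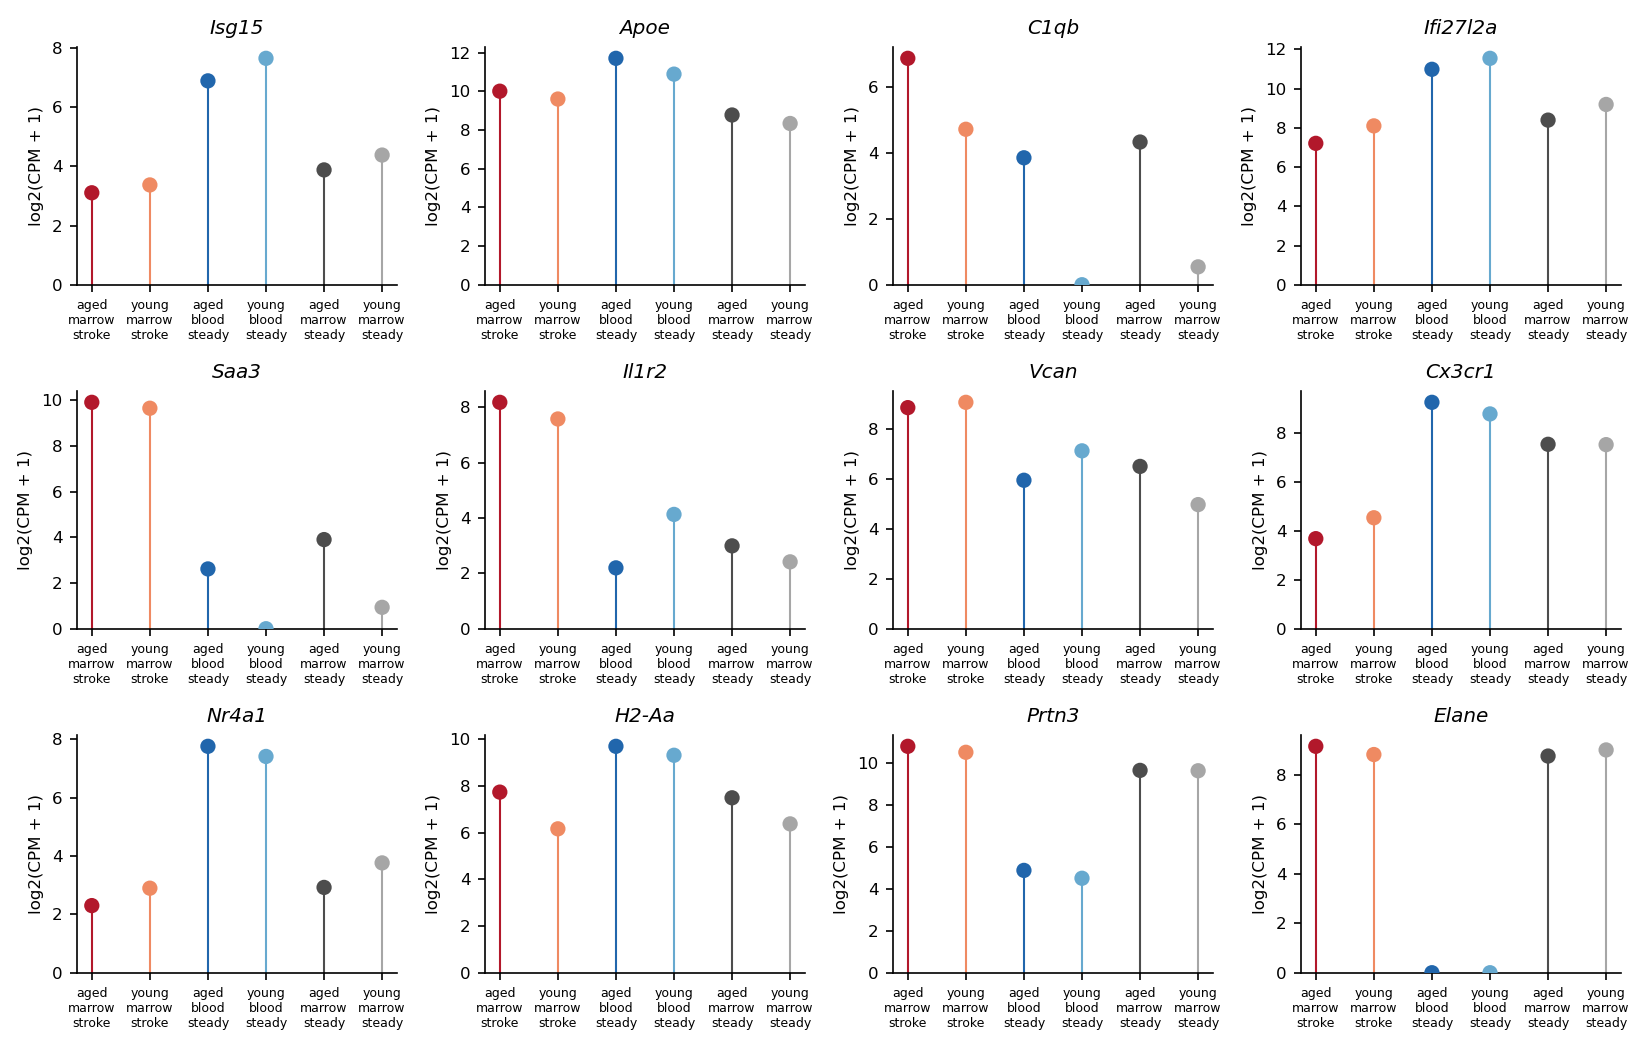
Level of 12 genes in the classical monocytes of each of the 6 libraries, as log2(CPM + 1) with CPM scaled by TMM; a point and stem stands for 1 library. Saa3, Il1r2 and Vcan are highest in the 2 stroke libraries, Cx3cr1, Nr4a1 and H2-Aa are highest in the 2 blood libraries, and Elane is at 0 in both blood libraries.

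Of 18 alarmin and acute phase genes, 13 rose and 3 fell after stroke (median 1.10, against -0.06 for all genes), where 19.8% of all genes rose. S100a8, a subunit of calprotectin, had 21383 and 26912 CPM in aged and young bone marrow after stroke, against 5469 and 3909 CPM in steady bone marrow (2.32 ± 0.30, adjusted p = 0.000345). Its partner S100a9 had 10452 and 13907 CPM, against 6805 and 4980 CPM (0.997 ± 0.28, adjusted p = 0.0180), and did not pass without the young steady library (0.47, adjusted p = 0.162) or with dividing cells left out (0.21, adjusted p = 0.582). Both are also neutrophil genes, at 57268 and 53751 CPM for S100a8 in the other kept cells of the stroke libraries, and the part of neutrophil transcripts in these levels was not tested. With cells carrying transcripts of other cell types left out, the S100a8 difference was 4.18. That step removes cells with Retnlg of at least 5 CP10k, in unequal shares. They were 8.16% and 9.17% of the cells in aged and young bone marrow after stroke, against 17.5% and 11.1% in steady bone marrow. The value of 4.18 therefore does not decide on the part of neutrophil transcripts. Chil3, a chitinase-like protein of classical monocytes, had 3082 and 6426 CPM after stroke, against 887 and 623 CPM in steady bone marrow (2.55 ± 0.31, adjusted p = 0.000243). Lrg1, a secreted acute phase glycoprotein, had 283 and 183 CPM, against 21.9 and 13.2 CPM (3.71 ± 0.54, adjusted p = 0.000654).

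Glucocorticoid-responsive genes rose in larger number than they fell, with 9 of 18 higher and 2 lower (median 0.74), against 19.8% and 19.9% of all genes. Mt1, a metallothionein, had 232 and 212 CPM in aged and young bone marrow after stroke, against 39.8 and 44.5 CPM in steady bone marrow (2.39 ± 0.14, adjusted p = 3.89e-06). Anxa1, the anti-inflammatory annexin A1, had 648 and 818 CPM, against 316 and 280 CPM (1.28 ± 0.14, adjusted p = 0.000151). Per cell, the summed level of the list had a median of 18.5 and 18.6 CP10k in aged and young bone marrow after stroke, against 10.3 and 8.96 CP10k in steady bone marrow. Other kept cells were at 19.9 and 18.6 CP10k after stroke and 10.5 and 9.83 CP10k in steady bone marrow. Inflammatory genes were divided, with 5 of 20 higher and 5 lower, near the shares of all genes in both directions. Socs3, which curbs cytokine signalling through JAK and STAT, had 60.3 and 17.0 CPM after stroke, against 2.51 and 2.28 CPM in steady bone marrow (3.92 ± 0.57, adjusted p = 0.000714). Clec4e, the receptor Mincle that senses dead cells, had 105 and 70.6 CPM, against 25.7 and 18.7 CPM (1.97 ± 0.19, adjusted p = 7.20e-05).

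Interferon-stimulated genes fell after stroke. Of 40 tested, 31 fell and 1 rose, where 19.9% of all genes fell, and the list median was -1.36. Ifi203, a nucleic acid sensor of the PYHIN family, had 18.3 and 29.3 CPM in aged and young bone marrow after stroke, against 165 and 179 CPM in steady bone marrow (-2.87 ± 0.16, adjusted p = 3.30e-06). Ly6e, which restricts viral entry, had 779 and 938 CPM, against 1369 and 1442 CPM (-0.72 ± 0.12, adjusted p = 0.00157). Ifit3, an antiviral RNA-binding protein, had 0 and 1.56 CPM, against 5.22 and 7.76 CPM (-3.00 ± 0.53, adjusted p = 0.00211). With dividing cells left out 29 of 38 fell and 1 rose, where 1155 of all 9345 genes fell and 1508 rose. With cells thinned to 2000 UMIs 7 of 29 fell and 0 rose (median -1.17), where 222 of all 5860 genes fell and 394 rose. In the thinned setting the rule was applied again to the thinned cells, which left 51 and 82 cells in aged and young bone marrow after stroke, 524 and 99 in aged and young blood, and 286 and 323 in aged and young steady bone marrow, and fewer genes could be tested.

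Interferon-stimulated genes are switched on when factors of the interferon pathway bind a response element near the gene start, whose core was taken as GAAA, 2 bases of any kind and GAAA, or on the other strand TTTC, 2 bases and TTTC. This core was searched in the 250 bases before the start of 27025 genes (RefSeq, GRCm38.p6), and 3.04% of them held it. Of the 31 interferon-stimulated genes in that table, 16 held it. The promoters of 3 of these 16 were chosen as examples with several separate, several overlapping and a single core. They are shown 5′ to 3′ on the gene's strand, with the core in capitals. Those of Ifit3 at chr19:34583279-34583528 (plus strand), Isg15 at chr4:156200819-156201068 (minus strand) and Oas3 at chr5:120777660-120777909 (minus strand) read as follows.
Ifit3: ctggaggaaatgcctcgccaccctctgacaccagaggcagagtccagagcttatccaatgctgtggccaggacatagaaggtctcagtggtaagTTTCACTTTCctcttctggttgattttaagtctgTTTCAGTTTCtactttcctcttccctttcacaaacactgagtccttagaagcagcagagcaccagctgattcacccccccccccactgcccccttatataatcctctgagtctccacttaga
Isg15: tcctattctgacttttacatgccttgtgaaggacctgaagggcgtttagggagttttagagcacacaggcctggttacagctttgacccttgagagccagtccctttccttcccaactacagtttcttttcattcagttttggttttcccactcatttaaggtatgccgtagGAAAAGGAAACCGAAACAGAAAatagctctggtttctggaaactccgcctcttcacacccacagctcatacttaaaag
Oas3: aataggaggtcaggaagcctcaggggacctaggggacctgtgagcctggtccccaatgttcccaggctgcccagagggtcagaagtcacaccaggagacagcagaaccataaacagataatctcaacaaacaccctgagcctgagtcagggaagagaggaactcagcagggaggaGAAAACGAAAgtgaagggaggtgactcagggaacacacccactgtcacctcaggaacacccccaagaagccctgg
Ifit3 has 2 cores, which begin 156 and 122 bases before the start, Isg15 has 3 that overlap, and Oas3 has 1. Among the 16 genes that held it, 12 fell and 1 rose after stroke (median -1.24), and among the 15 without it 12 fell and 0 rose (median -1.43). A match is only a match of letters in this window.

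Non-classical monocyte genes also fell in part after stroke, with 10 of 20 lower and 1 higher (median -0.63). Cx3cr1, the fractalkine receptor, had 11.8 and 22.04 CPM in aged and young bone marrow after stroke, against 183 and 181 CPM in steady bone marrow (-3.42 ± 0.26, adjusted p = 1.90e-05). It was found in 8.67% and 22.9% of the cells after stroke, against 66.5% and 62.7% in steady bone marrow, although cells were deeper after stroke. With cells thinned to 2000 UMIs the list had 2 genes higher and 2 lower and its median was 0.32, while Cx3cr1 still passed at -1.57. Cebpb, the transcription factor that non-classical monocytes need, went the other way, at 796 and 793 CPM after stroke, against 429 and 405 CPM (0.93 ± 0.12, adjusted p = 0.000292).

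Growth factor receptors and transcription factors of the lineage had no direction that held in every setting, with 10 of 24 genes lower and 3 higher (median -0.12). With dividing cells left out 5 were lower and 4 higher, and with thinned cells 2 were lower and 3 higher (median 0.31). Irf8, which directs progenitors to monocytes and dendritic cells, had 203 and 255 CPM in aged and young bone marrow after stroke, against 549 and 720 CPM in steady bone marrow (-1.47 ± 0.17, adjusted p = 0.000202). Batf3, a factor of dendritic cells, had 5.66 and 4.10 CPM, against 15.5 and 11.6 CPM (-1.47 ± 0.21, adjusted p = 0.000624), and its sign turned with cells thinned to 2000 UMIs (1.07). Spi1, which encodes the lineage factor PU.1, was higher, at 502 and 474 CPM, against 301 and 305 CPM (0.69 ± 0.11, adjusted p = 0.00149).

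Precursor genes were mixed after stroke, with 5 of 18 higher and 8 lower, against 19.8% and 19.9% of all genes. Ms4a3, a gene of granulocyte and monocyte progenitors, had 269 and 180 CPM in aged and young bone marrow after stroke, against 24.4 and 36.3 CPM in steady bone marrow (2.88 ± 0.25, adjusted p = 6.58e-05). Prtn3, which encodes proteinase 3, had 1745 and 1433 CPM, against 789 and 779 CPM (1.01 ± 0.12, adjusted p = 0.000275). With cells thinned to 2000 UMIs neither passed, Ms4a3 at 1.79 (adjusted p = 0.0701) and Prtn3 at 0.26 (adjusted p = 0.516). Of 20 dividing cell genes 6 rose and 4 fell after stroke (median -0.04), and with thinned cells 1 rose and 11 fell (median -1.08). Among the 13 with under 10% shared 3′ words 2 rose and 4 fell (median -0.15). Hmgb2, a chromatin protein of cycling cells, had 2853 and 2733 CPM, against 926 and 1078 CPM (1.48 ± 0.13, adjusted p = 4.01e-05).

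Antigen presentation genes fell in part. Of 16 MHC class II and dendritic cell genes 8 fell and 1 rose (median -1.39), but with dividing cells left out 4 of 15 fell and with cells thinned to 2000 UMIs 4 of 9 rose and 0 fell (median 0.68). The cause of this turn was not tested. Abundant class II genes did not fall in both ages. By the levels given above, H2-Aa was higher after stroke in aged and lower in young bone marrow, and Cd74 moved the other way in each. H2-DMa, which loads peptide onto class II, had 96.2 and 119 CPM after stroke, against 208 and 212 CPM in steady bone marrow (-0.97 ± 0.14, adjusted p = 0.000556). B2m, the light chain of MHC class I, had 655 and 710 CPM, against 1209 and 1307 CPM (-0.88 ± 0.12, adjusted p = 0.000435). Of 15 class I genes 5 fell and 2 rose, against 19.9% and 19.8% of all genes.

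Among receptors for microbes and opsonins, single genes moved both ways. Clec7a, the beta-glucan receptor Dectin-1, had 38.3 and 61.4 CPM in aged and young bone marrow after stroke, against 198 and 215 CPM in steady bone marrow (-2.06 ± 0.20, adjusted p = 7.32e-05). C5ar1, the receptor for complement C5a, had 47.5 and 45.4 CPM, against 16.6 and 9.13 CPM (1.84 ± 0.22, adjusted p = 0.000253). Fcgr4, an activating Fc receptor, had 30.9 and 28.7 CPM, against 11.6 and 5.02 CPM (1.84 ± 0.25, adjusted p = 0.000472). As lists, pattern recognition receptors had 4 of 20 higher and 2 lower, near or below the 19.8% and 19.9% of all genes, and Fc receptor and phagocytosis genes 8 of 19 higher and 5 lower. Itga4, the integrin chain that anchors monocytes to vascular cells, had 93.0 and 119 CPM, against 221 and 199 CPM (-0.98 ± 0.17, adjusted p = 0.00193), and 8 of 22 chemokine receptor and adhesion genes fell and 5 rose. Ctsl, a lysosomal protease, had 310 and 183 CPM, against 45.1 and 33.8 CPM (2.62 ± 0.14, adjusted p = 3.19e-06), while its list had 5 of 19 higher and 7 lower, or 4 higher and 1 lower with dividing cells left out.

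Oxidative phosphorylation genes rose together after stroke, 28 of 30 higher and 0 lower (median 0.67). Of the 20 with under 10% shared 3′ words 19 rose, and with cells thinned to 2000 UMIs 12 of 30 rose and 0 fell. Cox8a, a subunit of cytochrome c oxidase, had 1637 and 1559 CPM in aged and young bone marrow after stroke, against 1051 and 1062 CPM in steady bone marrow (0.59 ± 0.11, adjusted p = 0.00312). Ndufb8, a subunit of complex I, had 309 and 267 CPM, against 82.8 and 73.3 CPM (1.88 ± 0.19, adjusted p = 8.24e-05). Of 20 glycolysis genes 11 rose and 3 fell (median 1.02), yet among the 14 with little sharing 6 rose and 3 fell and the median was 0.11. Plin2, which coats lipid droplets, had 386 and 367 CPM, against 123 and 95.2 CPM (1.80 ± 0.13, adjusted p = 1.13e-05).

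The largest falls included Upb1, an enzyme of pyrimidine breakdown, at 0.871 and 1.17 CPM in aged and young bone marrow after stroke, against 44.1 and 68.3 CPM in steady bone marrow (-5.75 ± 0.25, adjusted p = 1.03e-06). Igkc, the immunoglobulin kappa constant region, had 13.9 and 9.95 CPM, against 1904 and 47.7 CPM (-5.31 ± 1.10, adjusted p = 0.00454). In aged steady bone marrow 10 cells held 97.7% of its UMIs, the difference was -2.001 without that library and -2.83 without aged stroke bone marrow, and B cell markers summed to 50.3 and 67.3 CPM in aged and young bone marrow after stroke (2 and 1 of 7 at 0), against 2824 and 428 CPM in steady bone marrow (0 and 1 at 0). The part of B lineage transcripts in this value was not tested. Lyz2 had 7169 and 13881 CPM after stroke, against 16474 and 15267 CPM (-0.63 ± 0.25, adjusted p = 0.0690), and did not pass. The number of genes called rested on single libraries as well, at 2237 without aged steady, 2457 without young steady and 2793 without aged stroke bone marrow.

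In blood, classical monocytes held no dividing cells and carried more transcripts of interferon response, antigen presentation, microbial sensing and non-classical monocytes than in steady bone marrow. Blood and bone marrow were sorted through different gates, so tissue and gate cannot be told apart in any of these differences. In all, 2501 genes were higher (21.2%) and 2483 lower (21.1%) in blood, 42.3% of those tested. These shares are the background for the list counts in blood below. With dividing cells left out 1090 of 9345 genes were higher and 824 lower. Without cells carrying transcripts of other cell types 2266 of 11166 genes were higher and 2289 lower. All 20 dividing cell genes fell, where 21.1% of all genes fell. Cdk1, the kinase that drives mitosis, had 0 and 0 UMIs in aged and young blood, against 155 and 179 CPM in aged and young steady bone marrow. With 3 UMIs over both blood libraries as the floor, Cdk1 was at least 509-fold lower in blood, Cenpf at least 593-fold, Ccna2 at least 467-fold and Kif11 at least 404-fold. The fall of Hmgb2, to 373 and 453 CPM in blood, against 926 and 1078 CPM in steady bone marrow (-1.28 ± 0.13, adjusted p = 4.88e-05), became 0.19 with dividing cells left out.

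Precursor genes fell in blood, 10 of 18, and 5 rose. Elane, neutrophil elastase, had 0 UMIs in both blood libraries, against 432 and 513 CPM in aged and young steady bone marrow, and was at least 1437-fold lower. Ms4a3 was likewise at 0 in both blood libraries, against 24.4 and 36.3 CPM, and at least 91.4-fold lower. Prtn3 stayed detectable at 28.2 and 21.5 CPM in aged and young blood, against 789 and 779 CPM (-4.95 ± 0.16, adjusted p = 5.13e-08). It was found in 23.5% and 17.5% of the blood monocytes, against 1.78% and 1.20% of the other kept blood cells. Irf8 had 406 and 321 CPM in blood, against 549 and 720 CPM in steady bone marrow (-0.77 ± 0.17, adjusted p = 0.00522), and did not pass without young steady bone marrow (-0.60, adjusted p = 0.0508) or with dividing cells left out (-0.31, adjusted p = 0.294). Spi1 was higher in blood, at 637 and 680 CPM, against 301 and 305 CPM (1.12 ± 0.12, adjusted p = 5.11e-05). Lcn2, lipocalin-2, was lower at 36.3 and 73.9 CPM, against 277 and 208 CPM (-2.29 ± 0.27, adjusted p = 0.000130), and Lgals1, galectin-1, at 365 and 445 CPM, against 1858 and 1937 CPM (-2.24 ± 0.13, adjusted p = 9.36e-07). Lcn2 is among the neutrophil markers, whose sum was also lower in blood, and the part of neutrophil transcripts in its level was not tested.

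Of 40 interferon-stimulated genes 38 rose and 0 fell in blood (median 2.05), where 21.2% of all genes rose. Isg15, a ubiquitin-like modifier, had 118 and 200.2 CPM in aged and young blood, against 13.7 and 19.9 CPM in steady bone marrow (3.21 ± 0.16, adjusted p = 4.11e-07). Ifi27l2a had 2030 and 2993 CPM, against 336 and 585 CPM (2.48 ± 0.13, adjusted p = 6.23e-07). Ifitm3, which blocks viral fusion, had 5434 and 5594 CPM, against 1907 and 2064 CPM (1.47 ± 0.14, adjusted p = 2.95e-05), and shares 25% of its 3′ words with other genes. With dividing cells left out 27 of 38 rose and 0 fell, and the median was 1.03. All 16 genes with the response element core shown above rose (median 2.42), as did 14 of 15 without it (median 1.96).

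Summed per cell, the interferon list had a median of 35.5 and 35.3 CP10k in aged and young bone marrow after stroke, 90.2 and 107 CP10k in aged and young blood, and 50.5 and 55.5 CP10k in aged and young steady bone marrow. The other kept cells of the same libraries were at 15.2 and 16.9, 21.4 and 30.9, and 18.4 and 18.5 CP10k, so the sum was higher in monocytes in all 6 libraries. The sum rests largely on Ifitm3 and Ly6e and is not a level of the whole list. In non-dividing monocytes of aged steady bone marrow these had 3416 and 1446 CPM, against 239 CPM for Ifi203. The immediate early genes, induced within minutes of a stimulus and also by cell handling, had a median sum of 10.4 and 11.2 CP10k after stroke, 40.4 and 47.4 CP10k in blood, and 11.9 and 15.1 CP10k in steady bone marrow. Other kept blood cells were at 121 and 159 CP10k of these genes.

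**Figure D5:**
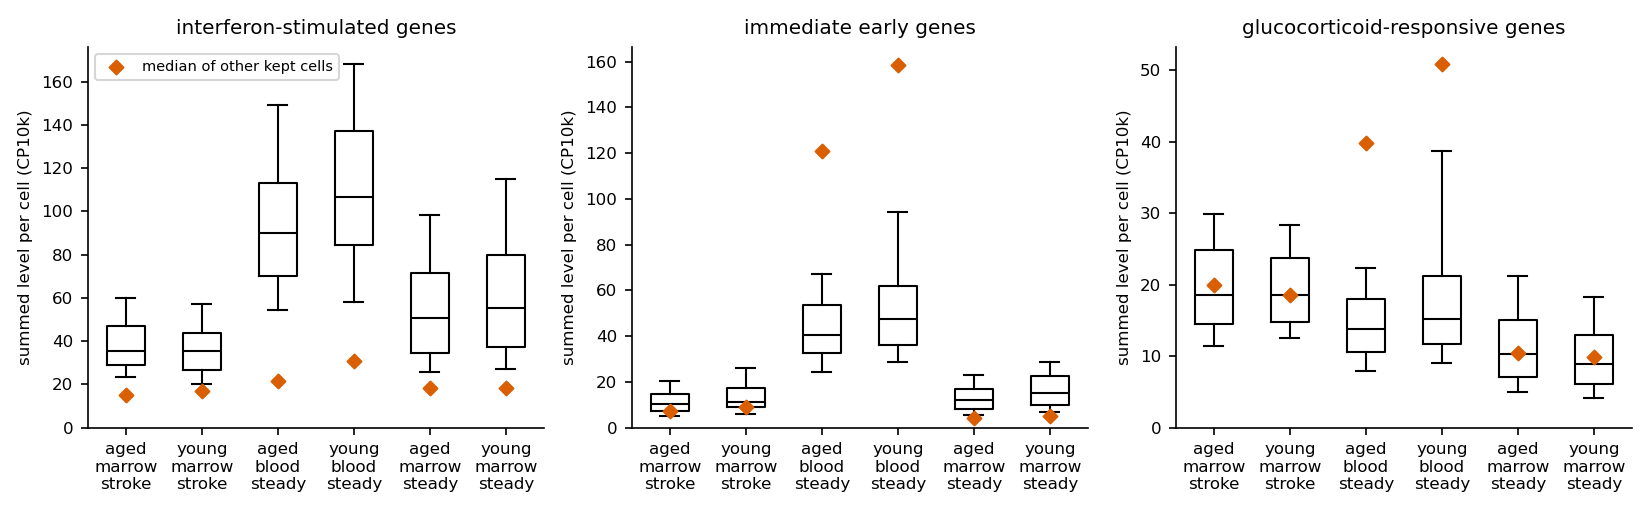
Summed level per classical monocyte of 3 gene lists in the 6 libraries, in CP10k (counts per 10000 UMIs). Boxes give the quartiles and median over cells, whiskers the 10th and 90th percentiles, and diamonds the median of the other kept cells; the interferon sum is lowest after stroke and highest in blood.

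Immediate early genes rose in blood, 15 of 20 higher and 0 lower (median 2.27). Junb, a subunit of the AP-1 factor, had 688 and 982 CPM in aged and young blood, against 79.9 and 79.7 CPM in steady bone marrow (3.37 ± 0.19, adjusted p = 8.01e-07). Klf2, a factor of quiescence and vascular contact, had 913 and 714 CPM, against 129 and 134 CPM (2.64 ± 0.16, adjusted p = 1.53e-06). Dusp1, a phosphatase of MAP kinases that glucocorticoids also induce, had 189 and 272 CPM, against 12.2 and 14.4 CPM (4.10 ± 0.16, adjusted p = 1.16e-07). In the other kept blood cells Dusp1 stood at 1158 and 1896 CPM, and the part of their transcripts in these levels was not tested.

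Non-classical monocyte genes rose in blood, 18 of 20 higher and 0 lower (median 2.57). Nr4a1 had 215 and 169 CPM in aged and young blood, against 6.58 and 12.6 CPM in steady bone marrow (4.38 ± 0.27, adjusted p = 1.71e-06). Hes1, a target of Notch signalling, had 85.4 and 44.5 CPM, against 0.774 and 0.228 CPM (6.93 ± 0.29, adjusted p = 1.47e-07). Cx3cr1 had 601 and 433 CPM, against 183 and 181 CPM (1.52 ± 0.22, adjusted p = 0.000468), and was found in 97.5% and 81.7% of the blood cells. Itgal, the integrin chain of LFA-1, had 313 and 443 CPM, against 106 and 103 CPM (1.83 ± 0.15, adjusted p = 9.30e-06). A sum of 5 CP10k of non-classical genes was reached by 15.6% and 26.7% of the cells in aged and young blood, against 4.52% and 2.91% in steady bone marrow. With all cells that carried transcripts of other cell types left out, these included, 14 of 18 still rose, 1 fell and the median was 1.91.

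Antigen presentation and microbial sensing genes were higher in blood. Of 16 MHC class II and dendritic cell genes 10 rose and 0 fell (median 1.37), and Cd74 had 2658 and 2262 CPM in aged and young blood, against 500 and 234 CPM in steady bone marrow (2.85 ± 0.20, adjusted p = 3.61e-06). Without cells carrying transcripts of other cell types, a step that removes those with much class II, 5 of 13 rose and 1 fell, and H2-Eb1 did not pass (1.31, adjusted p = 0.0743, against 2.70 ± 0.27 with all cells). B2m had 2567 and 3055 CPM, against 1209 and 1307 CPM (1.16 ± 0.12, adjusted p = 4.96e-05), and 9 of 15 class I genes rose and 0 fell. Of 20 pattern recognition receptors 19 rose and 0 fell (median 1.34), and with dividing cells left out 10 of 19 rose and 0 fell (median 0.60). Tlr7, the endosomal sensor of single-stranded RNA, had 84.1 and 97.6 CPM, against 9.67 and 10.5 CPM (3.16 ± 0.16, adjusted p = 5.08e-07). Cd14, a co-receptor for lipopolysaccharide, had 48.7 and 28.7 CPM, against 9.86 and 7.76 CPM (2.13 ± 0.20, adjusted p = 2.40e-05). Fc receptor and phagocytosis genes rose in 13 of 19 cases and fell in 0, and with dividing cells left out 7 of 19 rose and 0 fell.

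Inflammatory genes rose in blood, 15 of 20 higher and 0 lower (median 1.45), and with dividing cells left out 7 of 18 rose and 0 fell (median 0.79). Il1b, interleukin-1 beta, had 140 and 308 CPM in aged and young blood, against 33.5 and 20.3 CPM in steady bone marrow (2.94 ± 0.34, adjusted p = 0.000110). In the other kept blood cells Il1b stood at 2428 and 3760 CPM, and neutrophil markers summed to 4463 and 9005 CPM in aged and young blood monocytes, so young blood was higher in both. The part of neutrophil transcripts in the Il1b level was not tested. Apoe, the lipid carrier apolipoprotein E, had 3359 and 1905 CPM, against 439 and 324 CPM (2.75 ± 0.15, adjusted p = 5.97e-07). Psap, the precursor of lysosomal saposins, had 3071 and 3139 CPM, against 1328 and 1160 CPM (1.32 ± 0.14, adjusted p = 6.25e-05). Ctss, the protease that trims the invariant chain, had 2102 and 1935 CPM, against 713 and 633 CPM (1.59 ± 0.12, adjusted p = 7.22e-06). Among adhesion genes, Itga4 rose to 717 and 538 CPM in blood, against 221 and 199 CPM in steady bone marrow (1.58 ± 0.17, adjusted p = 6.53e-05). S1pr4, a receptor for sphingosine-1-phosphate, fell to 12.3 and 5.02 CPM, against 34.8 and 36.1 CPM (-1.72 ± 0.28, adjusted p = 0.000854).

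Oxidative phosphorylation genes did not share a direction in blood, with 7 of 30 higher and 12 lower (median -0.26), against 21.2% and 21.1% of all genes. With dividing cells left out 6 were higher and 3 lower. Alarmins had 1 of 18 higher and 6 lower. Lyz2 rose to 31892 and 28288 CPM in aged and young blood, against 16474 and 15267 CPM in steady bone marrow (0.92 ± 0.25, adjusted p = 0.0137). It did not pass without aged blood (0.56, adjusted p = 0.103), without young steady bone marrow (0.68, adjusted p = 0.109) or with dividing cells left out (0.29, adjusted p = 0.453). With dividing cells left out, 1914 genes were called in blood in place of 4984. The stroke and blood differences share the steady bone marrow libraries and are not independent of each other. Set against bone marrow after stroke in the same fit, where 27.9% of all genes were higher in blood and 28.6% lower, blood was higher for 40 of 40 interferon-stimulated genes (median 3.13) and for 20 of 20 non-classical monocyte genes (median 3.17), and lower for 14 of 18 alarmins and acute phase genes and for 27 of 30 oxidative phosphorylation genes.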

How the data were processed

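Single cells of 6 libraries were measured with a 3′ droplet kit. The authors deposited unnormalised UMI counts per gene and cell. Cell Ranger 3.0.2, STAR 2.5.3a, UMI-tools, Subread, featureCounts 1.6.4 and GRCm38/mm10 are named in the submitters' processing notes, without their roles. Cells with at least 500 UMIs and at most 10% mitochondrial UMIs were kept, and doublets were scored with scrublet in scanpy 1.11.5 (threshold 0.25) and left out only as an alternative. The limits on UMIs removed cells from both stroke libraries and from young blood, where 2029 of 2236 deposited cells were kept. They removed none from the other libraries. Counts of the cells meeting the rule were summed per library and fitted with edgeR 4.0.16 (TMM, filterByExpr, quasi-likelihood test, Benjamini-Hochberg adjustment) in R 4.3.3. DESeq2 1.42.0 was an alternative. The fit was tested on simulated data with 200 changed genes.

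The members and gene lists were chosen with earlier results of these data known. Named genes are, per difference, the 10 largest called ones of at least 20 CPM with 1 direction in every pair, filled up by lowest p, and from each list the 2 most abundant and the 2 of largest difference. Genes given beyond these were chosen after their values were seen. Leaving out cells that carry transcripts of other cell types, and setting blood against bone marrow after stroke, were alternatives added after seeing the data. Sharing of 3′ sequence was counted in 31-base words of the last 400 bases of a transcript. Total counts per library are given with the results, and intervals cover counting error only. Some genes that were tested and counted are not reported here by name.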

Additional observations from a re-analysis of the deposited data

Results flagged for a closer look

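For 3 genes the aged library was higher than the young in 1 context and lower in another, and none of these differences was tested. Lyz2 had log2 ratios of aged over young of -0.95 in bone marrow after stroke, 0.17 in blood and 0.11 in steady bone marrow, so that the ratio in blood exceeded that after stroke by 1.13. S100a8 had ratios of -0.33, -1.08 and 0.48 in the same contexts, and the ratio in steady bone marrow exceeded that in blood by 1.57. Chil3 had ratios of -1.06, -0.65 and 0.51, and the ratio in steady bone marrow exceeded that after stroke by 1.57.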

How the results depend on the processing

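The age difference called 9 genes, 14 with the DESeq2 test, 148 with no filter on low counts, 0 with genes under 20 CPM left out, 0 with dividing cells left out, 4 with a stricter rule, 44 with the bone marrow libraries only, 4 without cells that carry transcripts of other cell types, and 15 to 28 with 1 library left out. The stroke difference called 4670 genes, 2628 with the DESeq2 test (1582 higher, 1046 lower), 2943 with genes under 20 CPM left out, 2663 with dividing cells left out, 616 with cells thinned to 2000 UMIs and 2237 to 5612 with 1 library left out. The blood difference called 4984 genes, 3278 with the DESeq2 test, 2992 with genes under 20 CPM left out, 1914 with dividing cells left out, 1269 with thinned cells and 3129 to 5130 with 1 library left out. With the stricter rule the share of cells was 4.03% and 5.61% in aged and young bone marrow after stroke, 9.43% and 3.94% in aged and young blood, and 4.76% and 3.57% in aged and young steady bone marrow. With thinned cells, cells under 2000 UMIs left out, it was 2.35% and 5.13%, 9.83% and 5.28%, and 4.48% and 3.94%. Dividing shares at 20 CP10k were 24.5% and 26.1% after stroke and 38.04% and 41.3% in steady bone marrow. Signs turned for the age difference of S100a8 (0.18 with the stricter rule, 0.0785 with bone marrow only, -0.71 to 0.0798 with 1 library left out) and Lyz2 (-0.43 to 0.14 with 1 library left out), for Batf3 after stroke (1.07 with thinned cells) and for Hmgb2 in blood (0.19 with dividing cells left out). The cause was not tested. Of the values of named genes under alternatives, 288 of 355 by age, 686 of 714 by stroke and 765 of 778 in blood kept their direction and side of the threshold. No paired analysis was possible because each group has 1 library, so replicate numbers cannot form a block. The context term of the fit already sets aged against young within each context. With 1 library per group, the spread between mice could not be estimated.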
